A study of Mus musculus with 3 samples.

Results

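Expression in typical neuronal cells of the mPFC was compared between the *Tbr1* layer5 heterozygous library and the *Tbr1* wild-type library at P5. Typical neuronal cells are the cells that the authors kept for differential expression, and they number 1778 in the wild-type and 5357 in the heterozygous library, or 7135 of the 17396 filtered cells of the series. Raw UMIs were summed over these cells in each library, which gave 3670646 UMIs for wild-type and 10418228 for heterozygous, and were scaled to counts per 1000000 UMIs of the library (CPM). Of 14933 genes in the table, 4230 had a mean of 20 CPM or more over the 2 libraries, and these are the genes described here by function.

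Both genotypes carried the *Rbp4*-cre transgene and a Cre-dependent tdTomato reporter on a C57Bl6 background, and tdTomato-positive cells were sorted from dissociated P5 mPFC. The wild-type animals had no floxed *Tbr1* allele and the heterozygous animals had 1 (Tbr1f/+), so Cre acted in every sample, and a gene was altered only in cells in which this layer 5 driver had been active. There is 1 library per genotype, so no test between genotypes is possible, and it is not stated how many animals went into a library. Every interval below is a 95% interval for counting error alone, exact Poisson for a level and exact conditional binomial for a ratio. A log2 ratio is the heterozygous level over the wild-type level, and a gene is called higher or lower where this ratio passes 1.5-fold, or 0.58 on the log2 scale, with an interval that excludes 0. Where a ratio stands in parentheses, its interval follows it.

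*Tbr1* encodes a T-box transcription factor of postmitotic glutamatergic neurons of the deep cortical layers, where it acts as both an activator and a repressor of genes of neuronal identity. Layer 5 holds the large pyramidal neurons that project out of the cortex, and in the first postnatal week these cells extend axons and begin to form synapses. Loss of 1 *Tbr1* copy is associated with autism spectrum disorder in people, which makes the heterozygous state the one of interest for a dose effect.

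*Tbr1* (ENSMUSG00000035033, chr2:61802930-61814114 in GRCm38) was counted at 27.5 CPM (95% interval 22.4 to 33.4) in the wild-type library from 101 UMIs and at 30.7 CPM (27.4 to 34.3) in the heterozygous library from 320 UMIs. The log2 ratio was 0.16, with an interval of −0.17 to 0.50 that includes 0. The floxed allele loses exons 2 and 3, whereas the kit counts the 3′ end of a transcript, which the deletion leaves in place, so this value does not check the genotype label. Of 12 excitatory neuron markers 10 were tested. Their summed level was 2377 CPM in wild-type and 2831 CPM in heterozygous typical cells, against 1321 and 1863 CPM in empty droplets, which are barcodes from 100 UMIs up that hold too few to count as cells. The authors identified neuronal clusters by *Nrgn*, *Rorb* and *Cnih2*, and set aside atypical cells with lower *Neurod6* and *Nrgn*. The marker list holds *Nrgn* and *Neurod6*, so its level followed in part from this choice and does not check the label. In the same cells 14 markers of astrocytes and radial glia summed to 17743 and 16550 CPM, close to their 17627 and 18094 CPM in empty droplets. They were also close to the 18310 and 17055 CPM of the other sorted cells, those outside the neuronal table. Where this RNA in typical cells comes from was not tested.

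The libraries differ in more than genotype. A typical cell had a median of 1902 UMIs in wild-type and 1743 in heterozygous, a median mitochondrial share of 10.4% and 15.4%, and a median ribosomal share of 23.8% and 17.8%. The 4 Y-linked genes *Ddx3y*, *Eif2s3y*, *Uty* and *Kdm5d* had 44 UMIs in the typical cells of the wild-type library and 158 in those of the homozygous library, and none in the heterozygous library, in typical cells, in any filtered cell or in its 40520 empty droplets. With a floor of 3 counts this is at least 41.6-fold lower. *Xist*, which is transcribed from the inactive X, was at 18.8 CPM in wild-type and 8.06 CPM in heterozygous, under the level filter. Sex of the animals and genotype therefore cannot be told apart. The same barcode sequence occurred in typical cells of both libraries 14 times.

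Of the 4230 genes, 149 (3.52%) were called higher and 106 (2.51%) were called lower in the heterozygous library, or 255 together (6.03%). The median log2 ratio over all of them was 0.06, with the middle 50% of genes between −0.13 and 0.24, so most genes lay close to the wild-type level. An interval excluded 0 without regard to size for 1128 genes above 0 (26.7%) and for 726 genes below 0 (17.2%). Only 16 of the genes called higher and 17 of those called lower passed 2-fold. Centring the ratios on their median turned the 149 and 106 into 94 higher and 152 lower, and mean raw UMIs per cell gave 80 and 169, so the balance of the directions depends on the scale. The 306 genes at a mean of 500 CPM or more had a median of −0.10, with 8 called higher and 24 lower, whereas the 2037 genes between 20 and 50 CPM had a median of 0.06 with 87 and 52.

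**Figure D1:**
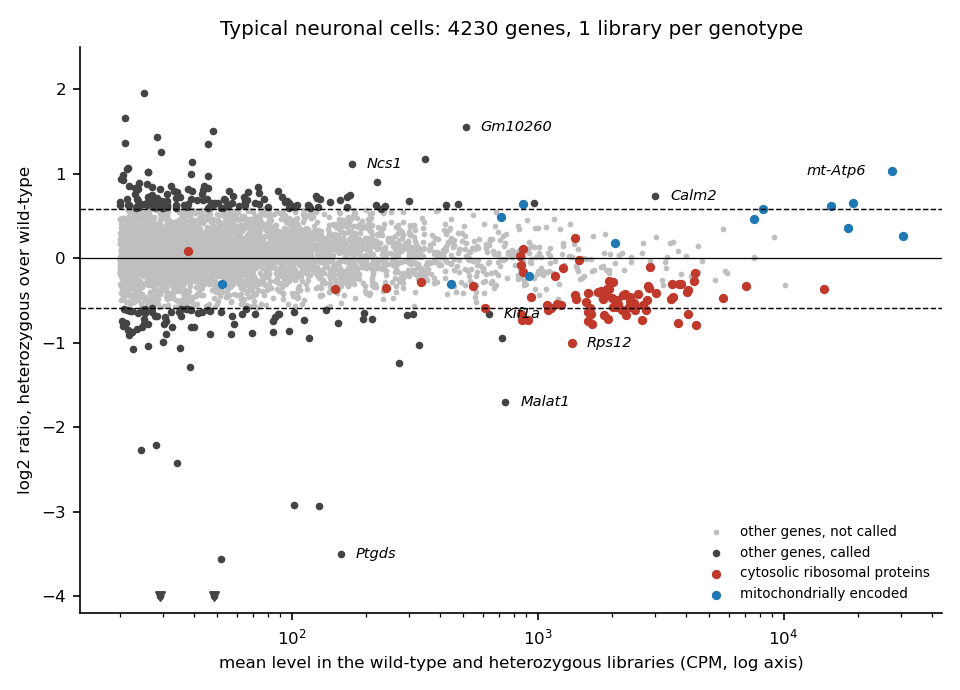
Each point is 1 of 4230 genes, with its mean level over the 2 libraries in CPM on a log axis and its log2 ratio of heterozygous over wild-type, and dashed lines mark 1.5-fold. Cytosolic ribosomal protein genes (red) lie below 0 at high levels, most mitochondrially encoded genes (blue) lie above 0, and 2 genes below −4 are drawn as triangles at −4.

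Cytosolic ribosomal proteins, the protein part of the ribosome, were the functional group with most genes called. All 83 genes of the list were tested, 21 were called lower and none higher, against 2.51% and 3.52% of all genes. The interval was below 0 for 78 of the 83 and above 0 for 2, against 17.2% and 26.7% of all genes. The list had a median log2 ratio of −0.46, against 0.06 for all genes, and its genes together took 21.97% of UMIs in wild-type and 16.1% in heterozygous. *Rps12*, of the small subunit, had the lowest ratio of the list, with 1834 CPM in wild-type and 915 in heterozygous and a log2 ratio of −1.003 (−1.05 to −0.96). *Rpl39*, a small protein of the exit tunnel, was at 5567 CPM in wild-type and 3222 in heterozygous, with a ratio of −0.79 (−0.81 to −0.76). *Rpl10*, *Rps20* and *Rpsa* also belonged to the 15 lowest ratios among genes at 100 CPM or more, at −0.78, −0.74 and −0.73. Of the other most abundant members, *Rpl41* was at 16344 CPM in wild-type and 12755 in heterozygous (−0.36, −0.37 to −0.34), *Rps29* was at 7837 CPM in wild-type and 6225 in heterozygous (−0.33, −0.35 to −0.31), and *Rpl13* was at −0.46 (−0.49 to −0.44). *Rpl22l1*, a paralog of *Rpl22*, was the highest of the list, at 1308 CPM in wild-type and 1544 in heterozygous with a ratio of 0.24 (0.19 to 0.29), and *Rpl22* itself was called lower at −0.59. The 32 small-subunit genes had a median of −0.49, with 10 called lower and 32 intervals below 0. The 49 large-subunit genes had a median of −0.42, with 11 called lower and 45 intervals below 0, and the difference between the subunits was not tested.

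Of 45 translation initiation and elongation factors, which work with the ribosome, 3 were called higher and 1 lower, against 3.52% and 2.51% of all genes. Their median was −0.01, with 13 intervals above 0 and 16 below, against 26.7% and 17.2% of all genes, and their summed level had a ratio of −0.09. *Eef1a1*, which brings aminoacyl-tRNA to the ribosome, was lower at 2079 CPM in wild-type and 1518 in heterozygous (−0.45, −0.49 to −0.41), short of 1.5-fold, and its exchange-factor subunit *Eef1d* was called lower at −0.61 (−0.75 to −0.47). *Eif4e*, the cap-binding protein, was called higher, with 82.5 CPM in wild-type and 128 in heterozygous and a ratio of 0.63 (0.45 to 0.81). *Gnb2l1*, which encodes the ribosome-bound scaffold RACK1 and which the list of G protein subunits holds by name, was called lower at −0.66 (−0.76 to −0.57). The 87 genes of the mitochondrial ribosome and of mitochondrial import had no call and a median of 0.04.

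Mitochondrially encoded transcripts lay on the other side. The 13 genes encode core subunits of the respiratory chain and of ATP synthase. Of these 5 were called higher and none lower, against 3.52% and 2.51% of all genes, with a median of 0.46. The 13 genes took 10.7% of UMIs in wild-type and 15.7% in heterozygous. *mt-Atp6*, a subunit of the proton channel of ATP synthase, was at 18163 CPM in wild-type and 37033 in heterozygous, with a log2 ratio of 1.03 (1.02 to 1.04). *mt-Nd1*, of complex I, was at 14854 CPM in wild-type and 23462 in heterozygous, with a ratio of 0.66 (0.65 to 0.67). *mt-Nd4l*, *mt-Cytb* and *mt-Nd4* were the other 3 called, at 0.64, 0.62 and 0.59. The transcripts were not all on the same side, since *mt-Atp8* was below 0 at −0.30 (−0.38 to −0.22), as were *mt-Nd6* at −0.30 and *mt-Nd3* at −0.20. In cells outside the neuronal table, which are the other sorted cells of the same libraries, the median of the 13 genes was 1.14, and in empty droplets it was 0.26.

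The nuclear partners of these subunits differed between complexes, and 1 of them was called. Of 36 complex I genes none was called, with a median of 0.08 that became −0.0111 with mean raw UMIs per cell. The 14 genes of complexes II and III had a median of 0.22, with 9 intervals above 0 and 3 below, against 26.7% and 17.2% of all genes. The 16 ATP synthase genes had a median of 0.02. Among 12 complex IV genes the median was −0.12, and 8 intervals were below 0 and 3 above, against 17.2% and 26.7% of all genes. *Cox4i1* was at −0.26 (−0.29 to −0.23) and *Cox7a2l* at −0.40 (−0.47 to −0.32). *Cox6a2* was the 1 complex IV gene called higher, at only 13.9 CPM in wild-type and 26.6 CPM in heterozygous (0.94, 0.50 to 1.40). It passed the level filter only through the heterozygous library. Of 14 glycolytic enzymes none was called, and the median was 0.11, with 7 intervals above 0 and 1 below, against 26.7% and 17.2% of all genes. *Pgk1* was the highest at 0.36 (0.02 to 0.70), and the lowest and most abundant, *Gapdh*, was at 1104 CPM in wild-type and 855 in heterozygous (−0.37, −0.42 to −0.31). The vacuolar ATPase, which acidifies synaptic vesicles and lysosomes, had 1 call among 16 genes, against 6.03% of all genes, and a median of 0.15. The call was its accessory subunit *Atp6ap2* at 0.82 (0.47 to 1.20).

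Genes of the ubiquitin system, which marks proteins for degradation, had 6 calls higher and 1 lower among 43, against 3.52% and 2.51% of all genes, and a median of 0.18. *Ubb*, a polyubiquitin gene, was at 3256 CPM in wild-type and 3679 in heterozygous (0.18, 0.15 to 0.21). *Ube2v2*, a partner of the enzyme for K63-linked chains, was called higher at 126 CPM in wild-type and 209 in heterozygous (0.73, 0.58 to 0.87). *Ube2r2*, a conjugating enzyme, was called lower at −0.81 (−1.10 to −0.51), and *Rps27a*, which encodes ubiquitin fused to a ribosomal protein, was at −0.58 (−0.61 to −0.54). The proteasome itself had no call among 42 subunits and a median of 0.13, and 46 chaperones had none with a median of −0.02. Among these, *Hsp90ab1* was at −0.45 (−0.50 to −0.39) and the co-chaperone *Dnajb6* at 0.56 (0.44 to 0.68).

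Calcium sensors gave 4 calls higher and none lower among 31 genes, against 3.52% and 2.51% of all genes, with a median of 0.23. *Ncs1* (ENSMUSG00000062661, chr2:31245823-31295989), a calcium sensor of synaptic terminals, was at 111 CPM (100.4 to 122) in wild-type and 240.1 CPM (231 to 249.7) in heterozygous, with a log2 ratio of 1.11 (0.96 to 1.27). *Calm2* (ENSMUSG00000036438, chr17:87433412-87446935), 1 of the 3 genes for the same calmodulin protein, was at 2259 CPM (2211 to 2308) in wild-type and 3765 CPM (3728 to 3803) in heterozygous, with a ratio of 0.74 (0.70 to 0.77). *Calm3*, which encodes the same protein, was higher by less, at 0.24 (0.19 to 0.29), and its interval does not reach that of *Calm2*. *Vsnl1* and *Hpca*, neuronal sensors of the same family as *Ncs1*, were the other 2 calls, at 0.61 and 0.61. *Nrgn*, which binds calmodulin at low calcium, was at 1692 CPM in wild-type and 2062 in heterozygous (0.29, 0.24 to 0.33), and *Pcp4*, a calmodulin-binding peptide of deep-layer neurons, was lower at −0.30 (−0.36 to −0.24). The authors used *Nrgn* in their choice of cells. *Camk2a* and *Camk2b*, the kinases that calmodulin activates, were at 0.13 (−0.04 to 0.31) and 0.23 (0.08 to 0.38).

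**Figure D2:**
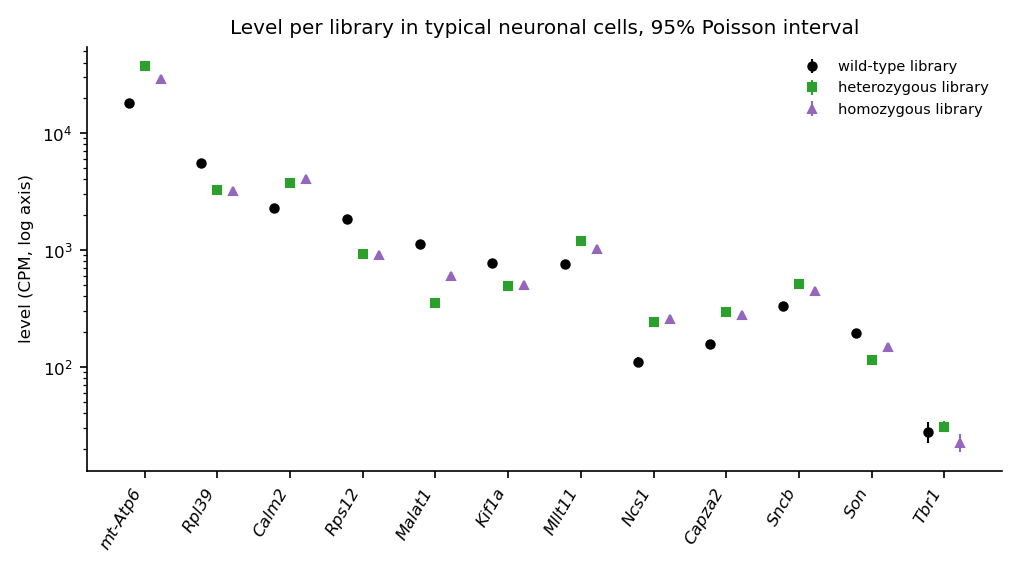
Levels in CPM on a log axis of 12 genes in typical neuronal cells of the wild-type (circles), heterozygous (squares) and homozygous (triangles) libraries, with 95% Poisson intervals that are mostly smaller than the symbols. Heterozygous levels of *Calm2*, *Ncs1* and *mt-Atp6* lie above wild-type, those of *Rpl39*, *Rps12*, *Malat1* and *Kif1a* lie below it, and the intervals of *Tbr1* overlap.

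Of 54 synaptic vesicle and SNARE genes, which carry out neurotransmitter release, 1 was called in each direction, a smaller share than the 6.03% of all genes. An interval was above 0 for 22 and below 0 for 2, against 26.7% and 17.2% of all genes, with a median of 0.17, and their summed share of UMIs was 0.492% in wild-type and 0.609% in heterozygous. *Sncb*, a synuclein of axon terminals, was the 1 called higher, at 331 CPM in wild-type and 514 in heterozygous (0.63, 0.54 to 0.72). *Vamp2*, the vesicle SNARE, was at 551 CPM in wild-type and 804 in heterozygous (0.54, 0.47 to 0.62), and *Snap25*, its partner on the plasma membrane, at 162 CPM in wild-type and 241 in heterozygous (0.57, 0.44 to 0.70). *Slc17a7*, the vesicular glutamate transporter, was at 0.29 (0.02 to 0.57). *Syt7*, a calcium sensor of slow release, went the other way and was called lower, with 39.2 CPM in wild-type and 25.2 in heterozygous (−0.64, −0.93 to −0.33), whereas *Syt4* was at 0.36 (0.13 to 0.59). In cells outside the neuronal table the median of the 54 genes was 0.56, and in empty droplets 0.32. Excitatory neuron markers also stood higher in heterozygous in both, as given above and below.

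Of 65 Ras, Rab and Arf genes, small GTPases of signaling and membrane traffic, 25 had an interval above 0 and 3 below, against 26.7% and 17.2% of all genes, and the median was 0.14. The 3 called higher are a share close to the 3.52% of all genes. The 3 were *Rab28* (1.05, 0.62 to 1.51), *Rab18*, of lipid droplets and the ER (94.5 CPM in wild-type and 157 in heterozygous, 0.73, 0.57 to 0.91), and *Rheb*, the activator of mTORC1 (0.59, 0.47 to 0.71). *Rab28* passed the level filter only through the heterozygous library. *Rab3a*, of synaptic vesicles, was at 0.30 (0.22 to 0.38). The 14-3-3 adaptors had 5 of 6 intervals above 0, against 26.7% of all genes. They were led by *Ywhah* at 370.0 CPM in wild-type and 578 in heterozygous (0.64, 0.56 to 0.73) and *Ywhaq* at 0.57 (0.48 to 0.67), with *Ywhag* below 0 at −0.14 (−0.24 to −0.04). Phosphatase and kinase subunits had 21 intervals above 0 and 6 below among 63, against 26.7% and 17.2% of all genes, with no call and a median of 0.15. The 28 G protein subunits and RGS proteins had a median of 0.05, with 7 intervals above 0 and 7 below, against the same shares. *Gnb1* was at 0.46 (0.40 to 0.52) and *Gnai1* at 0.57 (0.35 to 0.80). The 2 calls, both lower, against 2.51% of all genes, were *Gnb2l1*, given above, and *Rgs17* at −0.63 (−0.87 to −0.39).

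Clathrin and AP2 genes, which retrieve vesicle membrane, had no call among 18 and a median of −0.08, from *Amph* at −0.49 (−0.82 to −0.16) to *Sh3gl3* at 0.32 (0.11 to 0.54). On the postsynaptic side, 13 scaffold genes had a median of 0.09 with no call, and *Psd*, *Shank1* and *Dlg4* were at 0.21, 0.10 and 0.14. Glutamate receptor genes had a median of −0.21 over 13, also without a call, although their summed level was higher (0.20). Here receptor subunits and an abundant auxiliary subunit differed, since *Grm5* and *Grin2b* were at −0.39 (−0.67 to −0.11) and −0.30 (−0.54 to −0.05), while *Cnih2*, which escorts AMPA receptors, was at 859 CPM in wild-type and 1098 in heterozygous (0.35, 0.30 to 0.41). *Cnih2* was among the markers by which the authors chose neuronal clusters. Of 3 GABA receptor genes that passed the filter, *Gabra2* was called higher from a low level (15.8 CPM in wild-type and 24.5 in heterozygous, 0.63, 0.22 to 1.07), and *Gabra5* and *Gabbr1* were at 0.41 (0.12 to 0.71) and 0.04 (−0.12 to 0.21). Only 10 of 100 channel genes and 19 of 92 adhesion genes passed the level filter, and none of either was called. Of 77 genes matched by name as axon guidance receptors and ligands 5 passed, and of the 2 called higher only *Efna3*, an ephrin, is a guidance gene (15.5 CPM in wild-type and 28.1 in heterozygous, 0.86, 0.44 to 1.29). The other, *Ephx4* (0.68), encodes an epoxide hydrolase. *Gabra2* and *Efna3* passed the level filter only through the heterozygous library.

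**Figure D3:**
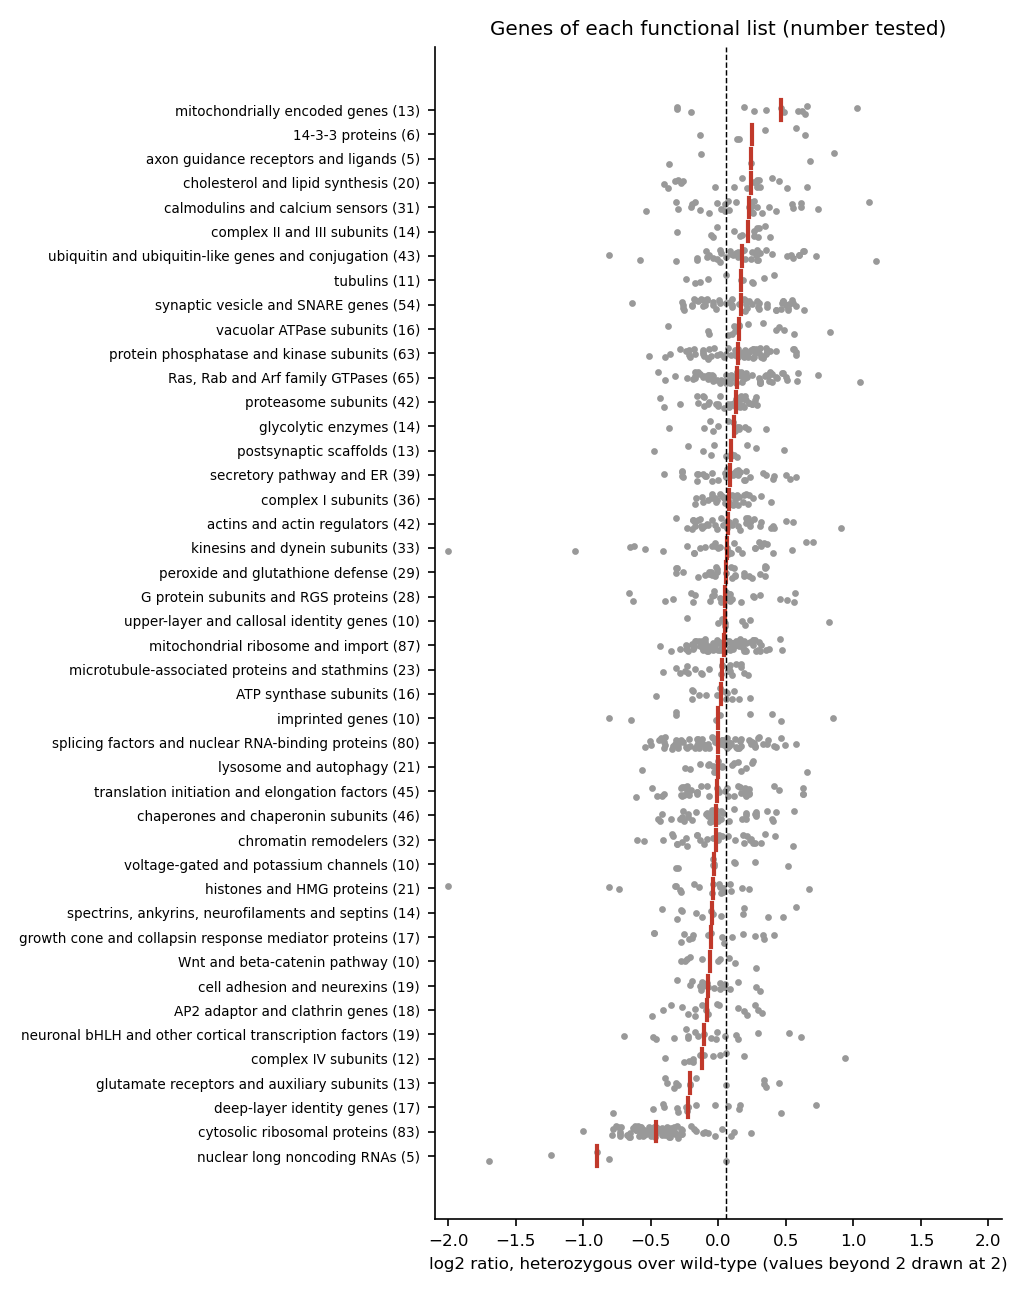
Each row is a functional list with the number of its genes tested, each grey point is the log2 ratio of 1 gene, and the red bar is the median of the list. The dashed line is the median of all genes (0.06), and the cytosolic ribosomal proteins and nuclear long noncoding RNAs lie to its left and the mitochondrially encoded genes to its right, with most other lists close to it.

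In the cytoskeleton, abundant genes lay on both sides of 0 and most by little. Tubulins had no call among 11, with *Tuba1a* at 8359 CPM in wild-type and 9976 in heterozygous (0.26, 0.24 to 0.27) and *Tubb2b* at −0.17 (−0.21 to −0.13). Among 23 microtubule-associated proteins and stathmins none was called, with 4 intervals above 0 and 6 below, against 26.7% and 17.2% of all genes. Those below included *Mapt* (−0.41, −0.48 to −0.34), which encodes tau, *Stmn2* (−0.31, −0.34 to −0.28) and *Stmn3* (−0.25, −0.29 to −0.20), while *Map2*, of dendrites, was at 0.22 (0.14 to 0.30). Of 33 kinesin and dynein genes 2 were called higher and 4 lower, against 3.52% and 2.51% of all genes, but 3 of these calls (*Dynlt1a* and *Dynlt1f* lower, *Dynlt1c* higher) are near-identical copies among which reads may be shared out. *Kif1a* (ENSMUSG00000014602, chr1:93015464-93101951), the kinesin that carries synaptic vesicle precursors along axons, was called lower, at 773 CPM (745 to 802) in wild-type and 491 CPM (478 to 505) in heterozygous, with a ratio of −0.65 (−0.72 to −0.59). *Kif21a* was the other kinesin called lower, at −0.62. Of 42 actin genes and regulators 1 was called, against 6.03% of all genes. It was the capping protein subunit *Capza2*, at 155 CPM in wild-type and 292 in heterozygous (0.91, 0.78 to 1.04). *Actb* was at 0.15 (0.12 to 0.17) and *Tmsb10*, which sequesters actin monomers, at −0.31 (−0.33 to −0.29). Growth cone genes were split, *Basp1* at −0.48 (−0.53 to −0.43), *Gap43* at 0.04 (0.01 to 0.08) and *Marcksl1* at 0.41 (0.36 to 0.46), and *Nefl*, the light neurofilament, was at 144 CPM in wild-type and 214 in heterozygous (0.58, 0.44 to 0.72), just short of 1.5-fold.

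Nuclear RNAs had the lowest median of all functional lists with 5 or more genes. Of 12 genes 5 were tested and 4 called lower, against 2.51% of all genes, with a median of −0.90. *Malat1* (chr19:5795690-5802672), a transcript of nuclear speckles, was at 1130 CPM (1095 to 1164) in wild-type and 348 CPM (337 to 359.9) in heterozygous, with a ratio of −1.70 (−1.76 to −1.63). *Gm42418* and *AY036118*, which overlap on opposite strands at chr17:39846958-39848788 and chr17:39847113-39848035 at a locus of ribosomal RNA sequence, were at −1.24 (−1.34 to −1.14) and −0.90 (−1.27 to −0.53). The median of the list is the value of *AY036118*. Whether reads on this pair come from ribosomal RNA was not tested. *Meg3*, an imprinted RNA, was at 49.6 CPM in wild-type and 28.2 in heterozygous (−0.81, −1.08 to −0.54), and *Pantr1* was at 675 CPM in wild-type and 703 in heterozygous (0.06, −0.01 to 0.13). Of 80 splicing factors and nuclear RNA-binding proteins none was called, with a median of 0.00 and with 17 intervals above 0 and 23 below, against 26.7% and 17.2% of all genes. *Son*, which encodes an RNA-binding protein and had one of the 15 lowest ratios at 100 CPM or more, was called lower at −0.77 (−0.91 to −0.63). In cells outside the neuronal table *Malat1* was at 33113 CPM in wild-type and 14926 in heterozygous (−1.15, −1.16 to −1.14). In empty droplets it was at 3186 and 1931 CPM (−0.72), so its level in typical cells lay below both. The empty-droplet profile was subtracted at the largest share the non-neuronal markers allow (35.9% of wild-type and 14.5% of heterozygous UMIs). After this *Malat1* had no level left in wild-type. Whether free RNA takes part in its ratio in typical cells was not tested further.

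Among 21 histone and HMG genes, against 6.03% called in either direction over all genes, 4 were called. Of these 1 was higher, *Hist1h2bc* (0.67, 0.48 to 0.87), and 3 lower, of which *Hmgb2*, abundant in dividing cells, was at 105 CPM in wild-type and 62.9 in heterozygous (−0.74, −0.92 to −0.55), a ratio that turned to 0.36 once the empty-droplet profile was subtracted, and *Hmgn5* at −0.81. The remaining lower call, *Hist1h2al*, has near-identical copies among which reads may be shared out, and is given below. The list of 32 chromatin remodelers had 1 call, against 6.03% of all genes. It was *Smarca4*, the ATPase of the BAF complex, at −0.60 (−0.88 to −0.32), while its neuronal partner *Actl6b* was at 0.03 (−0.14 to 0.20).

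Genes of layer identity bear most directly on *Tbr1*, which the study describes as setting layer 6 identity through repression of layer 5 markers. The deep-layer list also holds genes of layer 5, *Fezf2* among them, so its median has no single predicted direction. Of 17 deep-layer genes, 8 had an interval below 0 and 2 above, against 17.2% and 26.7% of all genes, with a median of −0.23. In each direction 1 was called, against 6.03% of all genes in either. *Tshz2*, a zinc finger factor, was called lower, at 74.1 CPM in wild-type and 43.1 in heterozygous (−0.78, −1.002 to −0.559), and *Lmo3*, a LIM-domain cofactor, was called higher, at 48.2 CPM in wild-type and 79.5 in heterozygous (0.72, 0.49 to 0.96). *Bcl11b*, the CTIP2 factor of subcerebral projection neurons, was at 73.0 CPM in wild-type and 59.0 in heterozygous (−0.31, −0.52 to −0.09), *Lmo4* at −0.41 (−0.52 to −0.29) and *Foxp1* at −0.24 (−0.41 to −0.07). *Fezf2*, upstream of *Bcl11b* in layer 5, was at 0.15 (−0.11 to 0.42), with an interval across 0. In cells outside the neuronal table the median of the 17 genes was 0.24, and in empty droplets −0.01. Of 10 upper-layer and callosal genes none was below 0 by its interval and 1 was called higher, against 17.2% and 3.52% of all genes. It was *Cux2*, at 27.5 CPM in wild-type and 48.5 in heterozygous (0.82, 0.51 to 1.14), while *Cux1* and *Rorb* were at 0.23 (−0.02 to 0.50) and 0.20 (0.01 to 0.38). Among 19 neuronal bHLH and other cortical factors 1 was called in each direction, against 6.03% of all genes in either. *Bhlhe22* was called higher (0.61, 0.41 to 0.82) and *Zbtb20* lower (−0.70, −1.01 to −0.39). *Neurod6* and *Sox4* were at 0.29 (0.17 to 0.41) and −0.33 (−0.43 to −0.22). Both *Rorb* and *Neurod6* were among the genes by which the authors chose the cells. *Mef2c*, an activity-dependent factor, did not differ beyond counting error, at 682 CPM in wild-type and 704 in heterozygous (0.05, −0.02 to 0.11).

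Of 10 imprinted genes 1 was called higher and 2 lower, against 3.52% and 2.51% of all genes. *Blcap* was higher (0.85, 0.51 to 1.20). *Ndn* was lower (240.3 CPM in wild-type and 153 in heterozygous, −0.65, −0.77 to −0.53), in addition to *Meg3*. *Snrpn* was at 983 CPM in wild-type and 1353 in heterozygous (0.46, 0.41 to 0.51). Among 20 genes of cholesterol and lipid handling *Msmo1*, of sterol synthesis, was called higher (0.65, 0.39 to 0.93). The median of that list was 0.24, with 10 intervals above 0 and 3 below, against 26.7% and 17.2% of all genes. The summed level of the list was lower (−0.17), because the sum is carried by the fatty acid binding proteins *Fabp7* (5713 CPM in wild-type and 4775 in heterozygous) and *Fabp5* (1910 CPM in wild-type and 1443 in heterozygous), which glia express. *Ctsl* and *Lamtor3* bounded the lysosomal list at −0.56 and 0.66, and 39 genes of the secretory pathway had no call and a median of 0.09. Of 10 genes of the Wnt pathway none was called, with *Apc* and *Ctnnb1* at −0.28 (−0.36 to −0.20) and −0.25 (−0.37 to −0.12) and *Gsk3b* at 0.28 (0.16 to 0.39). Of 29 genes of peroxide and glutathione defence none was called, and *Mgst3*, a microsomal glutathione transferase, was at 742 CPM in wild-type and 944 in heterozygous (0.35, 0.29 to 0.41). Of 19 immediate early genes only 3 were tested, and none was called.

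Genes that the study itself singled out are no independent choice. Besides *Calm2* and *Kif1a*, of the 7 genes named for in situ hybridization or rescue *Wnt7b* was at 26.2 CPM in wild-type and 28.4 in heterozygous (0.12, −0.22 to 0.47) and *Rac3* at 0.06 (−0.01 to 0.12), both with intervals across 0, while *Syt4* and *Mgst3* were at 0.36 and 0.35 with intervals above 0. Of 8 autism gene orthologs none was called, against 6.03% of all genes. Of their intervals 2 were above 0 and 2 below, against 26.7% and 17.2% of all genes. *Ank2* was at 265 CPM in wild-type and 214 in heterozygous (−0.31, −0.42 to −0.20). *Gsk3b*, *Rorb* and *Ctnnb1* had ratios of 0.28, 0.20 and −0.25 with intervals off 0, and *Smarcc2*, *Map1a*, *Ap2s1* and *Dpysl2* had ratios of 0.01, −0.13, −0.08 and −0.05 with intervals that include 0.

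Among genes at 100 CPM or more, those with the 15 highest ratios also included *Fgf13* (129 CPM in wild-type and 217 in heterozygous, 0.75, 0.61 to 0.90), a regulator of sodium channels and microtubules on the X chromosome, and *Acat2* (0.70, 0.54 to 0.87), of the mevalonate pathway. *Mpped1*, *Bend6*, *Ap3s1* and *Yaf2* were at 0.71, 0.69, 0.68 and 0.67. Between 20 and 100 CPM, and named after their values were seen, the highest ratios were those of *BC023719* (38 and 418 UMIs, 10.4 CPM in wild-type and 40.1 in heterozygous, 1.95, 1.47 to 2.47), *Mal2* (1.66, 1.17 to 2.19), *Mn1*, a transcriptional regulator (25.1 CPM in wild-type and 71.2 in heterozygous, 1.51, 1.19 to 1.84), *Agap2* (1.44, 1.03 to 1.87) and *Glrb*, the glycine receptor beta subunit (1.37, 0.90 to 1.86). *Mal2*, *Agap2*, *Glrb* and *BC023719* passed the level filter only through the heterozygous library. *BC023719* had 0 UMIs in typical cells of the homozygous library. It lies at chr17:36111426-36117121 on the mm10 reference, and *H2-D1*, a class I histocompatibility gene at chr17:35262730-35267499, was also called higher (1.03, 0.64 to 1.44), as was *Agpat1* at chr17:34604262-34613449 (1.14, 0.82 to 1.48). *H2-D1* also passed the level filter only through the heterozygous library. These genes were picked after their values were seen. Chromosome 17 as a whole had 7 of 206 genes called higher (3.40%) and 12 lower (5.83%), against 3.52% and 2.51% of all genes. Just past the threshold were *Rheb* and *mt-Nd4* (both 0.59), and just short of it *Gatm* and *Stk25* (both 0.58).

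Several of the most extreme ratios fell on genes with near-identical copies, among which a 3′ read may be shared out. Of the 255 called genes, 34 shared 50% or more of the 31-base words in the last 500 bases of their transcript with another gene, and this held for 21.7% of genes called lower and 7.38% of genes called higher, against 4.24% of all genes. *Gm10260* (chr13:97760072-97760632), a copy of *Rps18*, had the highest ratio at 100 CPM or more, with 260.2 CPM in wild-type and 761 in heterozygous (1.55, 1.45 to 1.65). Summed with *Rps18* and *Rps18-ps3* the levels were 3066 and 2868 CPM, and the ratio was −0.10 (−0.13 to −0.06). *Gm8797* (chr3:5750806-5751295), a copy of *Ubb*, was at 229 CPM in wild-type and 30.04 CPM in heterozygous (−2.93, −3.12 to −2.74) and at 777 CPM in the homozygous library, and summed with *Ubb* it gave 3485 and 3709 CPM and a ratio of 0.09 (0.06 to 0.12). *Dynlt1a* (chr17:6306340-6317500), a dynein light chain, had 350 UMIs in wild-type, 18 in heterozygous and 479 in homozygous cells, a ratio of −5.79 (−6.56 to −5.10), and summed with its copy *Dynlt1f* a ratio of −2.54 (−2.76 to −2.32). With *Dynlt1c* as well, which shares its end with both and was itself called higher (0.65), the sums were 164 and 57.1 CPM and the ratio was −1.52 (−1.69 to −1.35). *Hist1h2al* (chr13:51202727-51203065), a histone pseudogene, had 213, 3 and 219 UMIs in the same order, a ratio of −7.65 (−9.94 to −6.09), and with its copies −3.26 (−3.68 to −2.87). *Rps12* with *Rps12-ps3* kept its ratio, at −1.01 (−1.05 to −0.97). Of 24 called genes with a copy in the table, the sum was past 1.5-fold in the same direction for 16 and in the opposite direction for 1, *Dynlt1c*, and 4 sums in all had the opposite sign.

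Most genes called in typical cells had ratios of the same sign in other barcodes of these libraries. In empty droplets, whose UMIs the calls do not use, all 149 genes called higher were above 0, with a median of 0.71 against 0.68 in typical cells, and all 106 genes called lower were below 0, with a median of −0.67 against −0.72. Over the 4224 genes with a value there the median in empty droplets was 0.15, and 92.7% of the genes above 0 and 66.1% of those below 0 in typical cells had the same sign there. In cells outside the neuronal table, 133 of 149 and 102 of 106 had the same sign, against 59.7% of all genes above 0 and 71.2% of all genes below 0. Empty droplets hold RNA released from cells, neurons included, so the value does not separate a difference in neurons from one of the whole preparation, and how far either takes part was not tested.

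For single genes the compartments differed in degree. Cells outside the table also differed in make-up between the libraries. The 12 excitatory neuron markers summed there to 776 CPM in wild-type and 2189 CPM in heterozygous. How far this takes part in the ratios of these cells was not tested. *Calm2* had ratios of 0.74 in typical cells, 1.32 (1.28 to 1.36) in cells outside the table and 0.88 in empty droplets, and *Ncs1* had 1.11, 1.88 (1.70 to 2.06) and 1.21. *Kif1a* was at −0.65, −0.06 (−0.15 to 0.03) and −0.92 in the same order, so its other cells showed no difference beyond counting error. *Dynlt1a* (−5.79, −5.52 and −4.90), *Gm8797* (−2.93, −2.99 and −2.83) and *BC023719* (1.95, 2.09 and 2.02) were far from 0 in all 3 compartments. Whether such ratios belong to the *Tbr1* genotype or to other differences between the animals of the libraries cannot be told apart with 1 library each. *Rps12* was at −1.003, −0.70 and −1.12, and the ribosomal protein list at −0.46, −0.37 and −0.53.

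**Figure D4:**
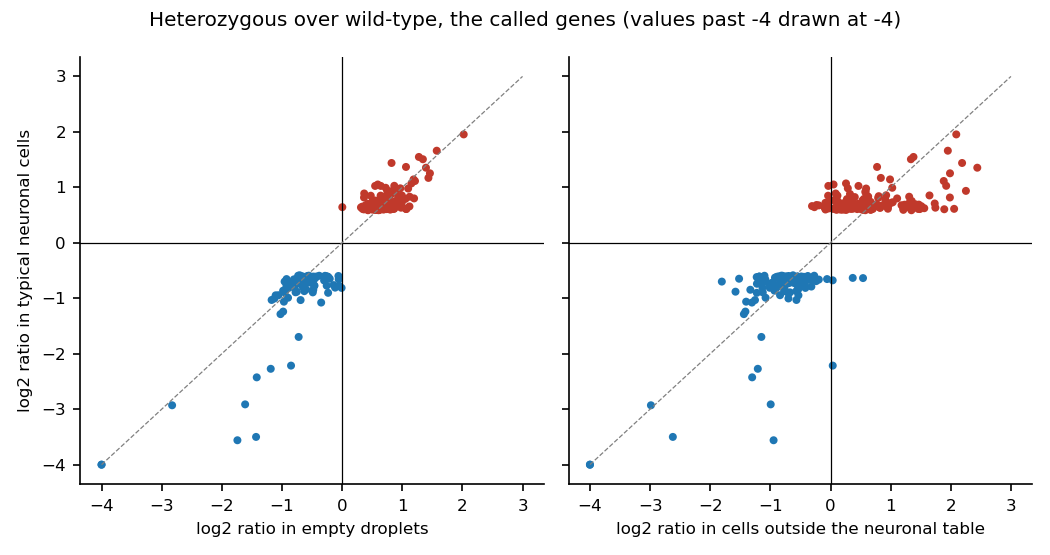
Log2 ratios of heterozygous over wild-type for the 255 called genes (red, 149 higher, blue, 106 lower) in typical neuronal cells on the vertical axes, against empty droplets (left) and cells outside the neuronal table (right), with the diagonal dashed and values past −4 drawn at −4. No called gene changes sign in empty droplets, whereas 16 of the higher and 4 of the lower genes do in the other cells.

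Transcripts of non-neuronal cells were prominent among the lowest ratios. *Ptgds*, a prostaglandin synthase of the meninges, was at 292 CPM (275 to 310.1) in wild-type and 25.8 CPM (22.8 to 29.1) in heterozygous typical cells, with a ratio of −3.50 (−3.70 to −3.31). The hemoglobin genes *Hbb-bs* and *Hba-a1* were at −2.91 (−3.13 to −2.70) and −3.56 (−3.92 to −3.21), and *Cldn5*, of endothelial tight junctions, at −2.43 (−2.77 to −2.09). As whole lists, 5 blood markers summed to 345 CPM in wild-type and 44.6 CPM in heterozygous cells, 11 meningeal markers to 561 and 234 (269 and 208 without *Ptgds*, left out after its value was seen), and 13 endothelial and mural markers to 432 and 315. In empty droplets these 3 lists also stood lower in heterozygous, at 889 and 307 CPM for blood, 1286 and 671 for meninges, and 1111 and 754 for vessels. Microglial markers, none of which passed the filter, summed to 93.2 and 68.6 CPM, and 13 inhibitory neuron markers to 608 and 545. In empty droplets both of these lists stood higher in heterozygous, at 259.6 and 390.4 CPM for microglia and 662 and 802 CPM for inhibitory neurons. *Fabp7* and *Apoe*, of radial glia and astrocytes, were at −0.26 (−0.28 to −0.24) and 0.03, the last with an interval across 0. The 14 such markers gave 2 calls lower, against 2.51% of all genes, with a median of −0.09. Cycling cell markers summed to 210.3 and 139 CPM, and striatal markers to 243 and 182, with *Meis2* called lower (−0.88, −1.08 to −0.68). The 12 oligodendrocyte markers summed to 511 and 513 CPM.

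The homozygous library has the same wild-type library as its denominator, so its ratios are given beside the heterozygous ones as values only. Over wild-type, *Calm2* was at 0.74 in heterozygous and 0.83 in homozygous, *Ncs1* at 1.11 and 1.22, and *Kif1a* at −0.65 and −0.62. The median of the ribosomal proteins was −0.46 and −0.42, and that of the mitochondrially encoded genes 0.46 and 0.22. For *Calm2* the levels of 3765 CPM in heterozygous and 4014 CPM in homozygous cells differ from each other by far less than either does from wild-type. *Tbr1* was at 0.16 and −0.30, and *Malat1* at −1.70 and −0.93. Genes with values far apart in the mutant libraries were *Dynlt1a* (−5.79 and −0.27), *Gm8797* (−2.93 and 1.76) and *Gm10709*, a copy of *Rpl29* (−0.94 and 0.27). For the last 2 this did not hold with their copies added. *Gm8797* with *Ubb* was at 3485 CPM in wild-type, 3709 in heterozygous and 3591 in homozygous, and *Gm10709* with *Rpl29* and *Gm3550* was at 1792, 1349 and 1257 CPM, with a heterozygous ratio of −0.41 (−0.45 to −0.37) short of 1.5-fold.

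By gene class, 4158 protein-coding genes had a median of 0.06, 28 lincRNAs a median of −0.04 with 5 called lower, and 21 pseudogenes a median of −0.35 with 1 called higher and 6 lower. Over all genes 3.52% were called higher and 2.51% lower. Transcript length made little difference, with medians of 0.05, 0.08 and 0.05 in the short, middle and long classes of nuclear protein-coding genes. By position, 17 of 196 genes on chromosome 3 were called higher (8.67%) and 2 lower, and on the X chromosome, where sex and genotype cannot be told apart, 11 of 152 were called higher (7.24%) and 8 lower (5.26%). Chromosomes 17 and 18 alone had larger shares called lower than the X, at 12 of 206 (5.83%) and 6 of 99 (6.06%). Chromosome 6 had 4 called higher of 191 and none lower.

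Since *Tbr1* encodes a T-box factor, the 300 bases from 250 before to 50 after the RefSeq start of each gene (GRCm38.p6) were searched for the T-box letters GGTGTGA on both strands. Promoter sequence was matched for 3247 of the 4230 genes tested, and 3.6% of these held the letters, against 4.6% of 27025 genes with a promoter. They occurred in 6 of 107 matched genes called higher (5.61%), 3 of 66 called lower (4.55%) and 0 of 61 ribosomal protein genes. The 2 promoters listed for *Kif1a* did not hold them, and *Calm2* was not matched. A match is a description of the letters and not a binding site. Matches in 5 genes called higher are shown 5′ to 3′ on the strand of the gene, with the T-box letters or their reverse complement in capitals, to let them be compared. *Lmo3* and *Ptgds* are on the minus strand and the others on the plus strand. They lie at chr10:127078720-127078748 for *Agap2*, chr6:138581966-138581994 for *Lmo3*, chrX:140456517-140456545 for *Prps1*, chr5:107405748-107405776 for the match of *Ephx4* nearest its start, and chr1:37299769-37299797 for *Inpp4a*.
Agap2: cccctaatcatGGTGTGAgaaatgagggg
Lmo3: gactctcccgaGGTGTGAgcactgctgtt
Prps1: gactccgccccTCACACCcgtccaaccaa
Ephx4: gggataaaacgTCACACCtcacaaagacg
Inpp4a: tcacataagagGGTGTGAccttttgggag

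Among genes called lower the letters were found in *Ptgds* (chr2:25469827-25469855), *Meg3* (chr12:109545242-109545270, the one of its 2 matches farther from the start) and *Mt2*, a metallothionein (chr8:94172524-94172552, 243 CPM in wild-type and 147 in heterozygous, −0.72, −0.84 to −0.60). The sequences are shown to compare with those above.
Ptgds: gccaccctcccTCACACCaacatcacgag
Meg3: ctcttagggatGGTGTGAccttaaacaag
Mt2: cagagaaagggGGTGTGActcagcgcggg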

How the data were processed

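Per the submitters' processing notes, Cell Ranger 2.0.1 and mm10 were used for 1 library of each genotype. The table used here is of raw UMI counts as the authors deposited them, for cells past their filters. For each cell the authors also give its mitochondrial and ribosomal UMIs, each as a fraction. Cells were taken as typical from the lists of the authors. UMIs were summed per library (numpy 2.4.6, scipy 1.17.1, pandas 2.3.3) and divided by the total. Genotypes were not tested against each other, since each has 1 library and cells are not replicates.

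The members, lists and rules were chosen with earlier results of these data known. Named genes are the 15 highest and 15 lowest ratios at 100 CPM or more with an interval off 0, the 4 most abundant and the 2 extreme members of each of 58 lists (all members where 12 or fewer were tested), genes that the study names, and the Y-linked genes and Xist. Others named are called genes or list members picked after their values were seen. Shared transcript ends were found in GENCODE vM21 (GRCm38). Alternatives were other denominators (one with TMM factors from edgeR 4.0.16), per-cell means, inclusion of atypical cells, matching and thinning of cells, removal of the 5% of cells with most UMIs, subtraction of the empty-droplet profile, and other filters and thresholds. No doublet caller was run. Some named genes and matched sequences are not reported here. The steps were tested on simulated data. The precision comes from 3670646 and 10418228 counts, and tables of normalized neuronal values were not used.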

Additional observations from a re-analysis of the deposited data

How the results depend on the processing

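Under the alternatives the median over all genes ranged from −0.03 to 0.07, so its sign was not fixed. Of 3820 recomputed ratios of named genes, 3414 stayed inside the counting interval, and 154 crossed 0, of which 1 was of a called gene (*Hmgb2*). The count of genes called higher moved from 149 to 94 when ratios were centred on their median, to 80 with mean raw UMIs per cell and to 233 with cells thinned to 1000 UMIs. Genes called lower moved from 106 to 169 with mean raw UMIs per cell. A filter of 100 CPM left 32 higher and 39 lower, and no filter beyond 1 UMI in each library gave 482 and 724. The lower of the other fold thresholds run gave 677 and 401, and 2-fold gave 16 and 17. The sign reversed for *Hmgb2* (0.36), for the median of the rescue and in situ genes (−0.0716) and for that of the endothelial and mural markers (0.60) after subtraction of the empty-droplet profile, for the last also at 100 CPM (0.0444), and for the complex I median (−0.0111) with mean raw UMIs per cell. Summed with near-identical copies, an alternative chosen after seeing the data, *Gm10260* reversed to −0.10 and *Gm8797* to 0.0900. The causes were not tested beyond what each setting changes. The subtraction left 6 genes without a value, *Cldn5*, *Hba-a1*, *Igfbp7*, *Itm2a*, *Malat1* and *Ptgds*. No paired analysis was possible because each genotype has 1 library, and the depth limits genes between 20 and 50 CPM to ratios with a median interval half-width of 0.32 on the log2 scale.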
